A study of Mus musculus with 107 samples.

Results

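Bergmann glia are the radial astrocytes of the cerebellar cortex, and the 5 genes described here (Gdf10, Wif1, Timp4, Septin4 and Cdc42ep4) were chosen by their high measured levels in RNA purified from these cells. They are 5 of the 18193 genes that the arrays represent through probe sets with a single gene symbol, and each was read from its probe set with the highest mean over all arrays. Since the levels in Bergmann glia chose the genes, those levels and every difference that involves them are given as description, without a test. The 5 genes were tested only between groups other than the Bergmann glia arrays, whereas genes of the marker and pathway lists were tested in comparisons with Bergmann glia as well.

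The samples came from mice carrying a bacterial artificial chromosome (BAC) transgene. In translating ribosome affinity purification (TRAP), the promoter of a driver gene places a tagged ribosomal protein in one cell population, and RNA bound to the tagged ribosomes is pulled out of tissue. The RNA left behind, called unbound RNA here, stands for the tissue. The series holds 24 TRAP populations and 6 unbound tissues on Affymetrix arrays. Bergmann glia TRAP RNA came from a single line, DS152, driven by Septin4, with 3 arrays. The cerebellar astrocyte arrays (3) came from the Aldh1l1 line JD130, and the cortical astrocyte arrays from Aldh1l1 lines JD130 and JD133 (4 arrays in all). Mature oligodendrocytes of cerebellum and cortex were purified with a Cmtm5 driver and mixed oligodendroglia with an Olig2 driver, with 3 arrays each. Purkinje neurons (Pcp2 driver, 2 lines, 6 arrays), granule neurons (Neurod1), Golgi neurons (Grm2), unipolar brush neurons (Grp) and stellate and basket neurons (Lypd6, 3 arrays each as for the others) made up the cerebellar neurons. Unbound cerebellum had 7 arrays from 3 lines (3 from Pcp2 line DR168, 3 from DS152 and 1 from Cmtm5 line JD307) and unbound cortex had 9. All animals carried a BAC transgene, unbound samples included. The labels used here give no age, sex or strain, and they do not say whether the Aldh1l1 line also tags Bergmann glia.

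As background, Gdf10 encodes a secreted ligand of the TGF-beta superfamily, whose members act through serine/threonine kinase receptors and SMAD proteins. Wif1 encodes a secreted protein that binds Wnt ligands and keeps them from their Frizzled receptors. Timp4 encodes a secreted tissue inhibitor of metalloproteinases, the enzymes that cut extracellular matrix. Septin4 encodes a GTP-binding protein that assembles with other septins into filaments, and Cdc42ep4 encodes one of the Borg proteins, which bind both the small GTPase CDC42 and septins. Bergmann glia wrap Purkinje cell synapses and guide granule cells during development.

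The sequences upstream of the transcription start are shown for the 3 genes that encode secreted proteins. They are the 250 bases before the start in RefSeq, build GRCm38.p6, written 5′ to 3′ on the strand of the gene. Capitals mark matches to 4 short motifs that were searched for on both strands, and no match overlaps another in these windows. For the NFI family of transcription factors the letters were TTGGCA. The core sequence of the GLI factors was taken as CCACCC. The core of the Notch partner RBPJ was written as TGGGAA, and the TATA box was searched for as TATAAA.
Gdf10, chr14:33923337-33923586, plus strand: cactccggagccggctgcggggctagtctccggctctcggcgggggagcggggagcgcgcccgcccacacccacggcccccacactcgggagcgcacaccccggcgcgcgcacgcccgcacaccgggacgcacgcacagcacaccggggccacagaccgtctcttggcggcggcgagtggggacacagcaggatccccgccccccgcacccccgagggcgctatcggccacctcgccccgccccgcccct
Wif1, chr10:121033754-121034003, plus strand: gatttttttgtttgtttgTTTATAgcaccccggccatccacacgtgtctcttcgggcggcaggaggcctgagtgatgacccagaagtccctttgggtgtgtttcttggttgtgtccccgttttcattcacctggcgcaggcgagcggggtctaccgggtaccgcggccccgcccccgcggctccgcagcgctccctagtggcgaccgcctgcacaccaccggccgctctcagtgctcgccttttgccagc
Timp4, chr6:115252206-115252455, minus strand: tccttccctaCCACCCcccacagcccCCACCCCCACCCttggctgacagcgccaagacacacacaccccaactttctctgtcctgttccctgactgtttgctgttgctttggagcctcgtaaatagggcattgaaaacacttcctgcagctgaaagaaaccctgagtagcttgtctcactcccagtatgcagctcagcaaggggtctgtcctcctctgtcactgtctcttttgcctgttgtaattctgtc
The Gdf10 window was 78.8% G or C with 35 CpG dinucleotides and held none of the 4 motifs. The Wif1 window was 62.8% G or C with 21 CpG dinucleotides and held 1 TATAAA, read on the reverse strand as TTTATA. The Timp4 window, at 53.6% G or C, held only 2 CpG dinucleotides and 3 matches to CCACCC. Among all 32851 promoter windows of this length the median was 52.4% G or C. TTGGCA was present in 12.3% of them, CCACCC in 28.1%, TGGGAA in 21.6% and TATAAA in 12.4%. Septin4 has 4 and Cdc42ep4 has 2 start sites in the same RefSeq table, and their windows held between 0 and 3 CCACCC matches and no other motif. A match is a string of letters and not a binding site.

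Levels are log2 of the deposited intensity after 1 shift per group that made the mean of 18 biotinylated control probe sets equal in all groups. A gene counted as tested in a comparison when a compared group had a mean of at least 6 (an intensity of 64). It counted as called when its Benjamini-Hochberg adjusted p in limma was under 0.05 and its difference at least 2-fold. Levels are compared only within a gene, because probe sets of different genes are not on a common scale. This scaling leaves the bulk of genes off 0 in most comparisons, so the median difference over all tested genes is given beside the members' values. With it, between 5.89% (Golgi neurons against unbound cerebellum) and 85.1% (unbound cerebellum against unbound cortex) of the calls were on the higher side, against 45.2% to 55.3% after quantile normalization over all arrays. Values repeated exactly between arrays are common: 49.2% of genes were identical in the 3 Bergmann glia arrays, 53.6% in the 3 cerebellar astrocyte arrays and 22.0% in the 7 unbound cerebellum arrays.

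Gdf10, the TGF-beta family ligand, was detected at 14.84, 14.77 and 14.73 on the 3 Bergmann glia arrays, its highest group mean of the 30 groups (14.78 ± 0.05, SD, n = 3). Cerebellar astrocytes followed at 14.16, 14.16 and 14.22, and unipolar brush neurons at 13.05, 13.52 and 13.41. The 3 groups did not overlap with one another or with any lower group. Unbound cerebellum ran from 10.89 to 12.48 with a median of 11.81, and it overlapped with stellate and basket neurons (10.29, 10.52 and 10.90). Mature oligodendrocytes of the cerebellum read 10.63, 10.95 and 9.95 and overlapped with stellate and basket neurons. Outside the cerebellum the highest levels were those of cortical astrocytes at 9.29, 8.21, 9.65 and 8.87, which overlapped with layer 5a neurons of the cortex at 8.22 ± 0.11 (n = 3). Gdf10 reached the minimum of 6 in 13 of 24 TRAP populations and in 3 of 6 unbound tissues. Within the cerebellum its lowest level was that of Golgi neurons (4.60 ± 0.31, n = 3).

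Wif1, the secreted Wnt antagonist, reached the minimum in the fewest groups of the 5 genes. Its level was 12.41, 11.16 and 11.10 on the Bergmann glia arrays (11.56 ± 0.74), with the first array clearly above the others. Unipolar brush neurons (9.62, 10.45 and 9.55) and cerebellar astrocytes (9.30, 9.61 and 9.79) overlapped with each other and lay below every Bergmann glia array. Cholinergic neurons of the striatum came next at 8.93 ± 0.64 (n = 3), overlapping with cerebellar astrocytes. These were the only 4 TRAP populations at or above the minimum, and none of the 6 unbound tissues reached it. Unbound cerebellum ran from 2.85 to 4.47 with a median of 3.60. In cortical astrocytes Wif1 read 2.05 on all 4 arrays, and in both oligodendrocyte preparations of the cerebellum it read the same low value on every array (2.56 and 1.57).

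Timp4, the metalloproteinase inhibitor, read 16.10, 15.94 and 15.94 on the Bergmann glia arrays and 15.93 on each of the 3 cerebellar astrocyte arrays. The groups did not overlap, but the gap between them was 0.01. Unipolar brush neurons read 15.17, 15.27 and 15.13, and cortical astrocytes 14.73, 14.47, 14.80 and 14.77. Mixed oligodendroglia of the cerebellum (14.31, 14.29 and 14.00) overlapped with unbound cerebellum, which ran from 13.23 to 14.42 with a median of 13.37. The next groups were stellate and basket neurons, at 13.26 on each array, and mixed oligodendroglia of the cortex at 13.11, 13.06 and 12.93. Timp4 was thus high in astrocytes of both regions, and it reached the minimum in 23 of 24 TRAP populations and in 6 of 6 unbound tissues.

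Septin4, the driver of the Bergmann glia line, read 16.05, 15.77 and 15.72 in Bergmann glia and 15.71, 15.63 and 15.63 in cerebellar astrocytes, without overlap. Next came a population of another lineage and region, mature oligodendrocytes of the cortex (15.17, 14.80 and 15.04), which overlapped with unipolar brush neurons (14.87, 14.99 and 14.81). Mature oligodendrocytes of the cerebellum read 14.73, 14.45 and 14.76 and overlapped with mixed oligodendroglia of the cerebellum at 14.62, 14.60 and 14.47. Stellate and basket neurons read 14.42, 14.29 and 14.36. Unbound cerebellum, from 12.95 to 14.38 with a median of 13.53, overlapped with that population. In cortical astrocytes the gene was much lower than in cerebellar astrocytes, at 11.15, 10.41, 10.83 and 11.09. Unbound cortex ran from 10.41 to 11.59 with a median of 10.57. Septin4 reached the minimum in 24 of 24 TRAP populations. Because the Bergmann glia line carries a BAC transgene made from Septin4, signal of the gene and any signal of the transgene cannot be told apart in it. Unbound cerebellum of that line read 13.39 ± 0.12 (n = 3).

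Cdc42ep4, the Borg protein gene, read 15.11, 14.92 and 14.79 in Bergmann glia and 14.76, 14.65 and 14.72 in cerebellar astrocytes, with a gap of 0.03 between the groups. Unipolar brush neurons (13.63, 13.81 and 13.72) overlapped with cortical astrocytes (13.77, 13.08, 13.65 and 13.26). Unbound cerebellum ran from 11.72 to 12.22 with a median of 11.90, above every remaining group. Stellate and basket neurons read 10.88, 10.94 and 10.91, and mature oligodendrocytes of the cerebellum 10.31, 10.63 and 10.30. The lowest cerebellar groups were Golgi, Purkinje and granule neurons, at 7.02 ± 0.10 (n = 3), 6.79 ± 0.25 (n = 6) and 6.54 ± 0.20 (n = 3).

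**Figure D1:**
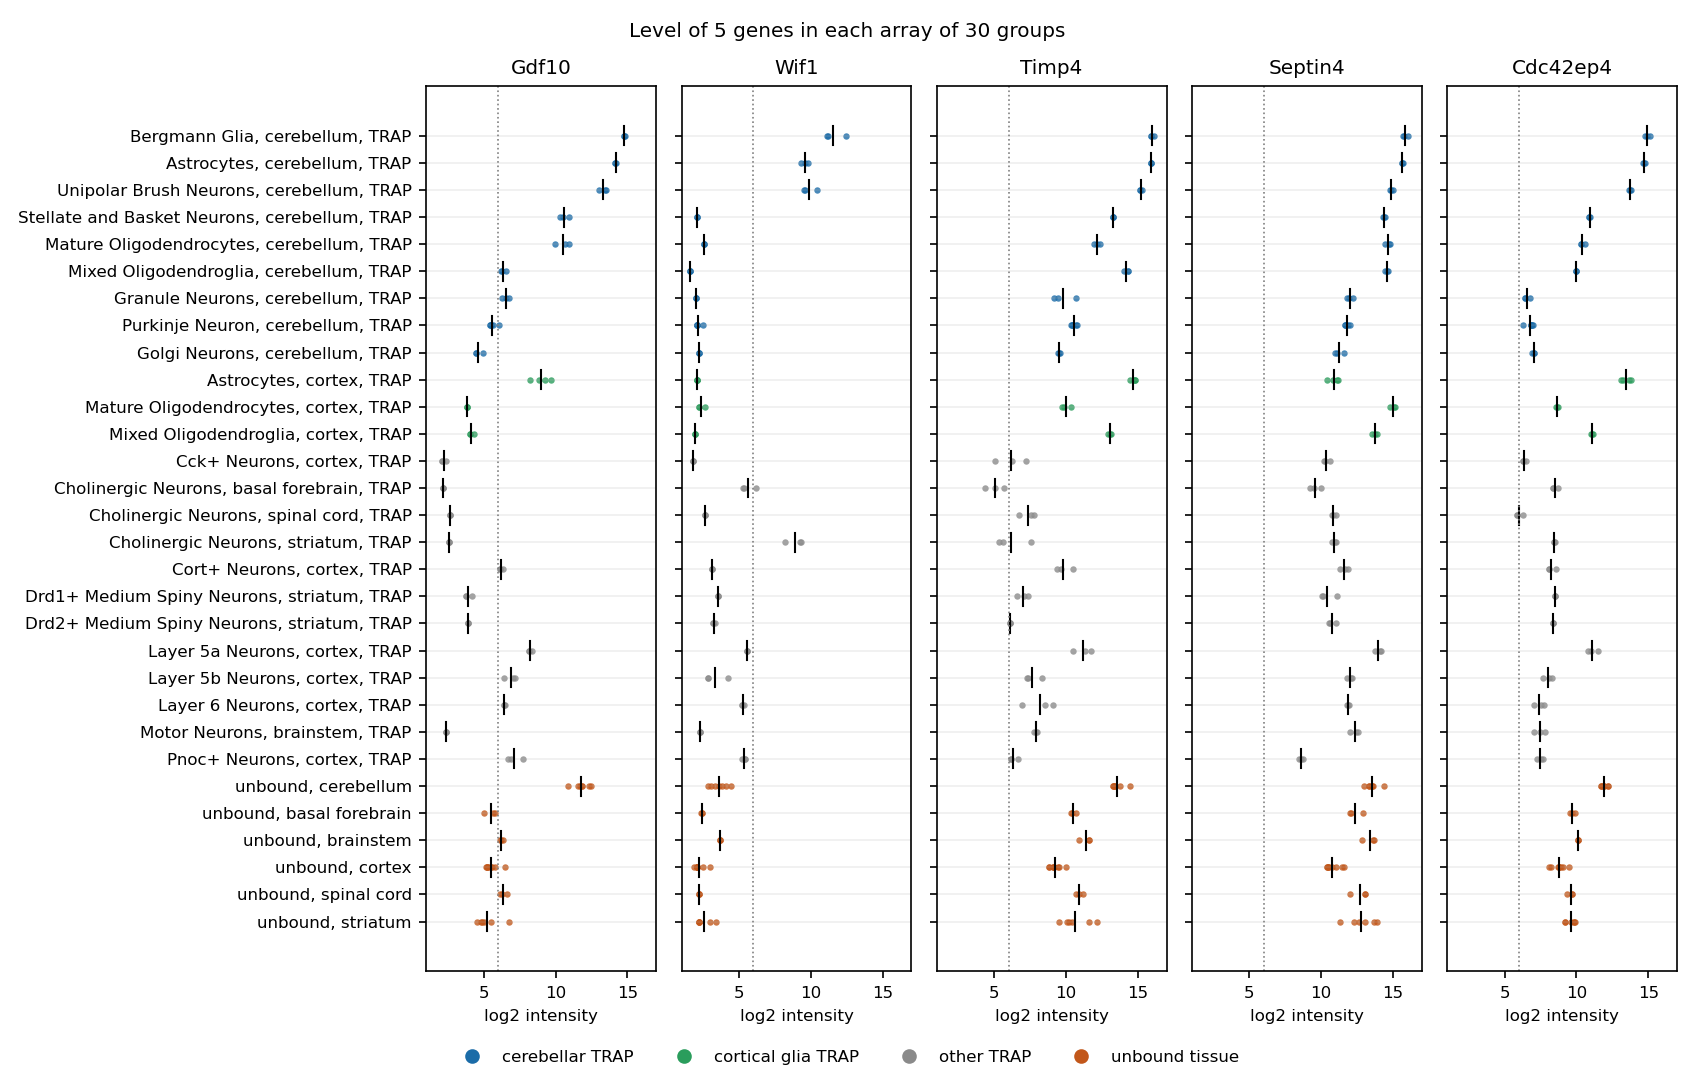
Log2 intensity of the 5 genes (x axis) on each array, grouped into 30 populations and tissues (y axis). Dots are arrays, black bars are group means and the dotted line is the minimum of 6. Bergmann glia hold the highest mean in each panel, with cerebellar astrocytes close by and unipolar brush neurons next among the cerebellar groups in 4 panels. For Wif1 only 4 group means lie at or above the minimum, and for Septin4 the oligodendrocyte groups lie near the glial ones.

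For Gdf10, Timp4 and Cdc42ep4 the remaining unbound tissues were low to intermediate. Gdf10 had means between 5.23 (striatum) and 6.33 (spinal cord), Timp4 between 9.22 (cortex) and 11.36 (brainstem), and Cdc42ep4 between 8.76 (cortex) and 10.10 (brainstem). Septin4 read 13.39 ± 0.45 in brainstem and 12.71 ± 0.59 in spinal cord (n = 3 each), against a mean of 13.52 in unbound cerebellum. In the 12 neuron populations outside the cerebellum, group means spanned 2.17 to 8.22 for Gdf10, 1.83 to 8.93 for Wif1, 5.04 to 11.18 for Timp4, 8.58 to 13.98 for Septin4 and 6.02 to 11.11 for Cdc42ep4.

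Across probe sets the order held at the top. Timp4, Septin4 and Cdc42ep4 each have a second single-symbol probe set, and Bergmann glia were the highest group in that one too. The second probe set of Timp4 (1450974_at) read 12.92 ± 0.36 in Bergmann glia, and over the 30 groups it lay 4.59 below the one used (1423405_at) with r = 0.93. For Septin4 the set used (1455422_x_at) and the other (1448729_a_at) differed by 0.28 on average with r = 0.98. For Cdc42ep4 they differed by 3.17 (1436801_x_at and 1416511_a_at), also with r = 0.98. The suffix x marks a set whose probes can match other transcripts as well. Gdf10 (1424007_at) and Wif1 (1425425_a_at) have 1 probe set each.

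The comparison of Bergmann glia TRAP RNA with unbound cerebellum describes how far the genes are concentrated in the purified RNA. In these bulk samples, fewer cells of a type and less RNA per cell cannot be told apart. Wif1 was at least 47.2-fold higher with the unbound side, whose mean of 3.60 lies under the minimum, set to the minimum. Cdc42ep4 was higher by 3.01 (8.06-fold) and Gdf10 by 2.99 (7.92-fold), while Timp4 was higher by 2.45 (5.45-fold) and Septin4 by 2.33 (5.03-fold). The median over all genes was −0.50. Against the 3 unbound arrays of the Septin4 line alone the differences were 3.41 for Gdf10, 3.13 for Cdc42ep4, 2.70 for Timp4 and 2.46 for Septin4. Array 1 had the highest value of the 3 Bergmann glia arrays for each of the 5 genes.

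The label of the Bergmann glia arrays was checked against 13 other genes used as Bergmann glia markers and 12 astrocyte markers (Slc1a3 is in both lists). In this comparison 19.6% of all genes tested were called higher and 39.5% lower. A gene under the minimum in 1 of the groups was tested only through the other and had to differ, so its call is a description and its difference is one from background. This holds for 37 of the 100 list genes called here and for 18 of the 42 called between Bergmann glia and cerebellar astrocytes. Of the 13 Bergmann glia markers 11 were called higher and 1 lower, with a list median of 2.65. The Sonic hedgehog effector Gli1 read 8.26 ± 0.49 (n = 3) against 2.97 ± 0.12 (n = 7), under the minimum, and so was at least 4.78-fold higher. Dao, which encodes D-amino acid oxidase, was higher by 3.48 (SE 0.15, limma adjusted p = 5.6e-35), and Itih3 by 3.40 (SE 0.27, adjusted p = 1.6e-19). Hes5, a Notch target, went the other way, from 7.09 in unbound RNA to 2.09, and Hopx differed by 0.99, just under 2-fold. Of the 12 astrocyte markers 10 were called higher and none lower (median 1.65), led by the lipid enzyme gene Acsbg1 at 4.15 (SE 0.21, limma adjusted p = 3.3e-31).

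Markers of most other cells were lower in the same comparison. The 5 Purkinje neuron markers on the array and the 4 granule neuron markers were all called lower, with medians of −4.04 and −4.72. Progenitor markers were lower (3 of 3 tested, median −4.79), as were microglial ones (2 of 2, median −6.03). So were the choroid plexus genes Ttr and Otx2 (2 of 2, median −6.15, with an SD of 5.32 for Ttr over the 3 arrays). Otx2 also read 10.83 in unipolar brush neurons and 8.69 in granule neurons, so it does not stand for choroid plexus alone. Of 3 vascular genes tested, Cldn5 and Slco1a4 were lower, calls that were lost after quantile normalization, and Pdgfrb was higher by 2.52. Several genes called lower here lay under the minimum in Bergmann glia and were tested only through unbound RNA. Among them were Pdgfra (1.89), Gpr17 (2.24), Vcan (3.25), Slc1a6, Fat2, Cldn5, Slco1a4 and Otx2. The myelin list behaved differently. Of its 10 genes on the array 3 were called higher (Cmtm5 by 2.99, Cldn11 by 1.69 and Mog by 1.46) and 1 lower (Ermn by −1.44, not called without further scaling), with a median of 0.03. Its mean level was 11.87 in Bergmann glia (array range 11.69 to 12.06, with all 10 at or above the minimum), 11.42 in unbound cerebellum (11.13 to 11.69), 8.73 in cerebellar astrocytes and 14.07 in mature oligodendrocytes. Septin4 was itself high in oligodendrocyte preparations, so these values stand beside its level in Bergmann glia, and their part in that level was not tested.

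**Figure D2:**
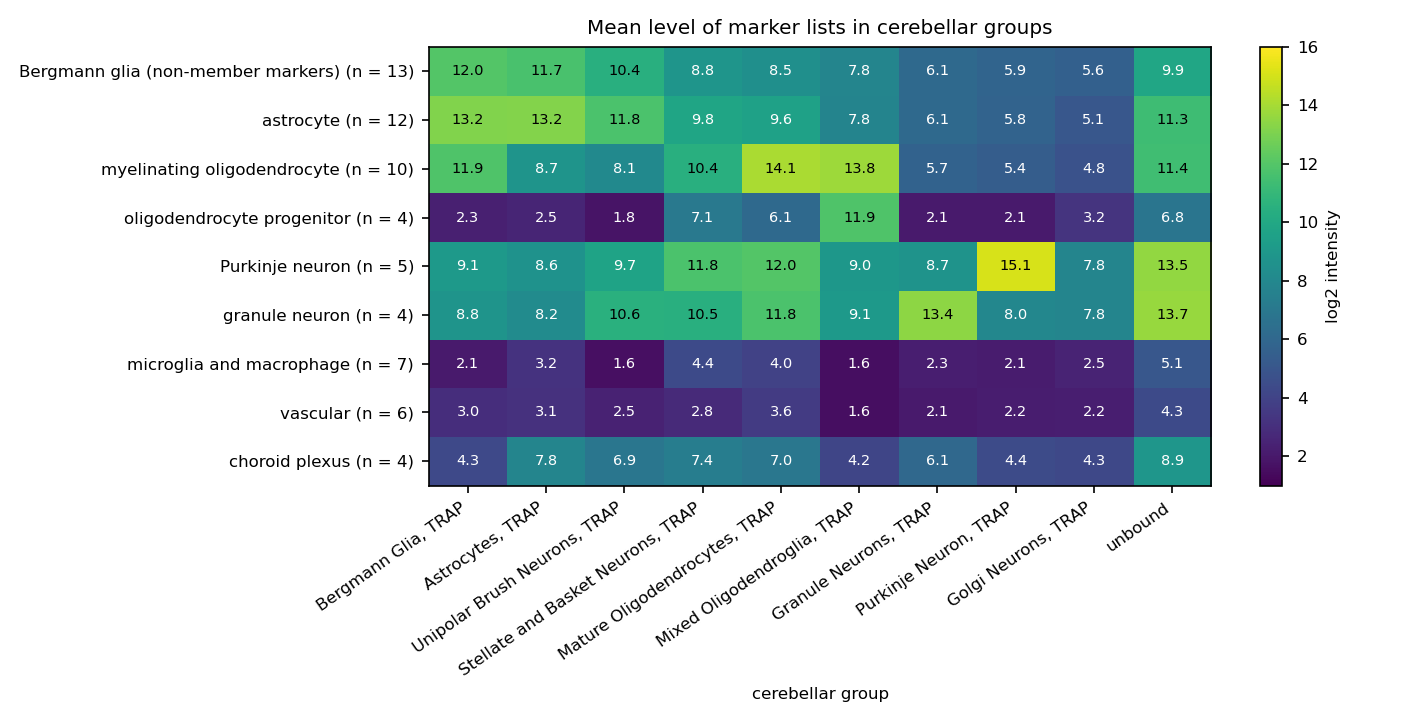
Mean log2 intensity of each marker list (rows, with the number of genes on the array) in the cerebellar groups (columns), with the value printed in each cell and comparison meant within a row. The Bergmann glia and astrocyte lists are highest in Bergmann glia and cerebellar astrocyte RNA, the astrocyte list at 13.18 in Bergmann glia, and the myelin list reads 11.87 there against 8.73 in cerebellar astrocytes.

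Genes around Wif1 in the Wnt pathway were examined in the same contrast, from a list of 15 ligands, 12 further secreted inhibitors, 15 receptors and 8 target genes on the array. Most lay under the minimum in both groups. Of 3 ligands tested, Wnt6 (7.68 ± 0.33) was at least 3.20-fold and Wnt7b (8.30 ± 0.14) at least 4.92-fold higher, both tested only through Bergmann glia because they lay under the minimum in unbound RNA. Wnt7a differed by −0.60. Of the other secreted inhibitors only Dkk3 and Apcdd1 were tested. Dkk3 read 9.39 ± 0.22 against 6.61 ± 0.47 in unbound RNA and Apcdd1 11.60 ± 0.10 against 10.17 ± 0.40, and both were called higher (differences of 2.78 and 1.43, limma adjusted p = 1.6e-17 and 4e-05). All other members of that list, the Sfrp genes and the remaining Dkk genes among them, stayed below 6 in both groups.

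Receptors split. Of 9 tested, 4 were called higher, led by Fzd1 at 3.07 (SE 0.30, limma adjusted p = 1.2e-15), Ror2 at least 2.10-fold and Fzd6 at 1.53, and 3 lower, Ror1 at least 8.59-fold, Fzd7 at −3.03 and the coreceptor gene Lrp6 at −2.12. The list median was −0.37. Among Wnt target genes, Rnf43 (4.11) and Znrf3 (2.49), which encode ubiquitin ligases that remove Frizzled receptors, were called higher. Axin2 was called lower by −1.19 and Nkd1 differed by 0.15 (4 tested, median 1.32). The calls of Lrp6 and Axin2 were lost after quantile normalization, where both kept their sign.

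In the TGF-beta family around Gdf10, ligands and receptors were mostly low or reduced in Bergmann glia, whereas most target genes tested were higher. Of 15 further ligands 6 were tested. Bmp6 was called higher by 1.36 (SE 0.30, limma adjusted p = 3.5e-05), and 5 were lower, led by Inha at −7.10, Tgfb2 at −4.27 and Inhbb at −3.33 (list median −2.88). Of 10 receptors tested, the type I BMP receptor genes Bmpr1b (2.38, SE 0.44, limma adjusted p = 1.2e-06) and Bmpr1a (1.15, SE 0.22, adjusted p = 2.6e-06) were higher. Another 6 were lower, with Acvr1c at −4.83, Tgfbr3 at −4.65 and Tgfbr2 at −3.26 (list median −1.36). Bambi, a pseudoreceptor that blocks signalling, was higher by 3.45 (SE 0.40, limma adjusted p = 2e-12), whereas Chrd was lower by −1.52 and Smad7 differed by 0.91 (3 inhibitors tested, median 0.91). The target genes Id4 and Id3 were called higher by 1.62 and 1.40, and Id2 differed by 0.28 (4 tested, median 1.51). Id1 was called higher by 2.21, but it lay under the minimum in unbound RNA (5.00) and was tested only through Bergmann glia (7.22). The calls of Chrd and of Tgfb3 (−1.24) were lost after quantile normalization.

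Relatives of Timp4, Septin4 and Cdc42ep4 did not move as a block. Among the other inhibitors, Timp1 read 7.12 ± 0.06 against 2.64 ± 0.44 in unbound RNA, at least 2.17-fold higher, and was tested only through Bergmann glia. Reck was called lower by −2.23 and Timp3 by −1.14, the latter call being lost after quantile normalization, and Timp2 differed by 0.54 (list median −0.30). Of 8 metalloproteinases tested, the membrane enzyme gene Mmp14 (1.90) and Adamts1 (1.29) were higher and Mmp24 (−5.31), Mmp16 (−4.46) and Mmp17 (−4.38) lower, with a list median of −0.80. Mmp16 was not called after quantile normalization.

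Septins tested besides Septin4 numbered 8. Septin10 read 7.62 ± 0.07 and Septin9 7.08 ± 0.01 in Bergmann glia, at least 3.07-fold and 2.11-fold higher than in unbound RNA, where both lay under the minimum. Septin11 at −7.30, Septin8 at −5.02, Septin3 at −4.28 and Septin6 at −3.52 were lower. Septin7 (13.70 in Bergmann glia, difference 0.21) and Septin2 (difference −0.42) were not called, and the list median was −1.97. In the Borg family, Cdc42ep1 read 13.00 ± 0.33 against 9.49 ± 0.24 and was higher by 3.51 (SE 0.23, limma adjusted p = 9.5e-25). Cdc42ep3 was lower by −1.57, a call lost without further scaling, and Cdc42ep2 differed by −0.06 (list median −0.06). Of CDC42 and 9 further genes of its pathway, the CDC42-related GTPase gene Rhoq was called higher by 1.40 and 6 were lower, led by Pak3 at −5.06, Cdc42bpb at −3.04 and Cdc42 itself at −1.83 (10 tested, median −1.18).

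**Figure D3:**
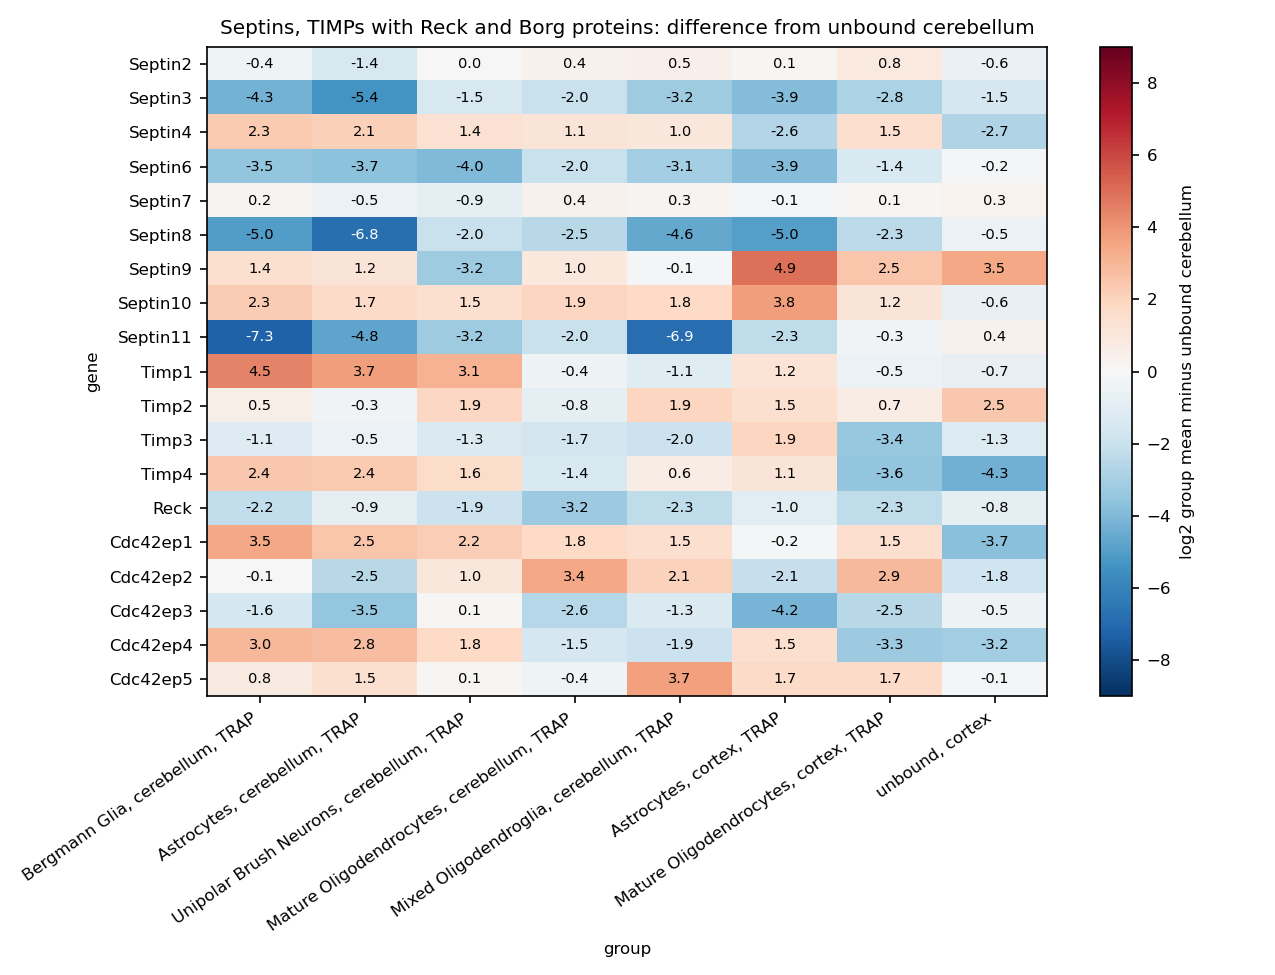
Log2 difference of each group mean (columns) from unbound cerebellum for the 19 septin, TIMP with Reck and Borg genes that reach the minimum in a group shown (rows), with the value in each cell. Septin4, Timp4 and Cdc42ep4 are red in Bergmann glia and cerebellar astrocytes, and so is Cdc42ep1, whereas Septin3, Septin8 and Septin11 are blue there. Colours compare groups within a row and not genes with one another.

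Bergmann glia and cerebellar astrocyte RNA differed most in Wif1 among the 5 genes. Wif1 was higher in Bergmann glia by 1.99 (3.97-fold) and Gdf10 by 0.60 (1.52-fold). Cdc42ep4 was higher by 0.23, Septin4 by 0.19 and Timp4 by 0.06, all below the median of all genes, which was 0.43. Gdf10 lay 0.17 above that median. In this comparison 16.8% of genes tested were called higher in Bergmann glia and 3.73% lower. Higher calls made up 81.8% of all calls, against 48.6% after quantile normalization.

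Of 12 further Bergmann glia markers tested, 4 were called higher in Bergmann glia and none lower (median 0.50): Gli1 by 1.76 (SE 0.19, limma adjusted p = 3.2e-13), Vim by 1.12, Gria1 by 1.08 and Itih3 by 1.05. The calls of Vim, Gria1 and Itih3 were lost after quantile normalization. Among the 12 astrocyte markers the intermediate filament gene Gfap was called lower, at 11.77 ± 0.30 against 13.38 ± 0.07 in cerebellar astrocytes (difference −1.60, SE 0.52, limma adjusted p = 0.0084), and no other was called (median 0.16). Myelin genes were the list with the most calls, 8 of 10 higher and none lower, with a median of 2.92. Mog (5.38), Mal (5.20) and Ugt8a (4.90) led them. Of 3 granule neuron markers tested 2 were called higher, Gabra6 by 1.75 and Neurod1 by 1.33 (median 1.33). Of 4 Purkinje neuron markers 1 was, Ppp1r17 by 1.32 (median 0.58). The calls of Neurod1 and Ppp1r17 were lost after quantile normalization. Of the choroid plexus genes Ttr and Folr1 were lower, at −6.92 and −3.58. Folr1 lay under the minimum in Bergmann glia (2.61) and was tested only through cerebellar astrocytes, where it read 6.19. The part of these markers in the members' differences was not tested.

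In the pathway lists few genes separated Bergmann glia from cerebellar astrocytes. Wnt6 was at least 3.20-fold higher in Bergmann glia, being under the minimum in astrocytes, and Wnt5a lower by −1.02 (4 ligands tested, median 0.01). None of the 2 further secreted Wnt inhibitors tested was called (median 0.28). Rnf43 and Nkd1 were higher by 5.06 and 2.81 (4 target genes, median 1.70), and the receptor genes Fzd9, Lrp6 and Fzd4 were lower by −2.35, −2.20 and −1.05 (9 tested, median −0.03). The calls of Wnt5a and Fzd4 were lost without further scaling. In the TGF-beta family, Bmp6 (1.19), Tgfbr1 (1.27) and Smad7 (1.19) were higher, each losing its call after quantile normalization. Tgfb2 (−2.64), Acvr1c (−3.45), Tgfbr2 (−2.91), Eng (−1.44) and Id3 (−1.20) were lower, of which Id3 was not called without further scaling. The list medians were 0.59 for ligands, 0.38 for receptors, 0.78 for inhibitors and −0.18 for target genes.

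Among relatives of the members, all 3 Borg genes tested were higher in Bergmann glia: Cdc42ep2 by 2.44, Cdc42ep3 by 1.94 and Cdc42ep1 by 1.04 (median 1.94, the last call being lost after quantile normalization). The septin genes Septin8 and Septin3 were higher by 1.80 and 1.10 (7 tested, median 0.71), of which Septin3 lost its call. Reck was lower by −1.36 (4 inhibitors tested, median 0.07) and Adamts4 higher by 2.79 (5 metalloproteinases tested, median 0.17). Of 9 genes around CDC42, Cdc42bpa was higher by 1.18, a call lost after quantile normalization (median 0.45).

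Cerebellar astrocyte TRAP RNA was compared with unbound cerebellum, the same control arrays that the description of Bergmann glia used. The 5 genes were higher in astrocyte RNA, and no array of one group overlapped with the other. In all, 16.4% of the 10430 genes tested were called higher, and the median difference was −0.93. Cdc42ep4 was higher by 2.78 (SE 0.17, 6.87-fold, limma adjusted p = 3.1e-26) and Gdf10 by 2.38 (SE 0.26, 5.22-fold, adjusted p = 7.8e-14). Timp4 was also higher by 2.38 (SE 0.36, 5.21-fold, limma adjusted p = 9.6e-09) and Septin4 by 2.14 (SE 0.27, 4.40-fold, adjusted p = 3.6e-11). Wif1 passed the minimum only through the astrocyte arrays, so it had to differ, and it was at least 11.9-fold higher. The other Bergmann glia markers were called higher in 9 of 12 and lower in 1 (median 2.10), the astrocyte markers higher in 9 of 12 and lower in none (median 1.98), and myelin genes lower in 8 of 10 and higher in 1 (median −2.97).

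In the cortex the genes parted. Cortical astrocyte RNA held more Timp4 than unbound cortex, by 5.47 (SE 0.32, 44.3-fold, limma adjusted p = 9.4e-28), and more Cdc42ep4, by 4.67 (SE 0.15, 25.5-fold, adjusted p = 6.8e-45). Gdf10 was at least 8.04-fold higher, and since unbound cortex lay under the minimum it was tested only through the astrocyte arrays. These 3 of the 4 genes tested were called higher, against 33.1% of all genes, whose median was 0.11. Septin4 differed by 0.09 (SE 0.24, limma adjusted p = 0.74), with overlapping arrays and a sign that turned under other scalings. Wif1 lay under the minimum in both groups and was not tested.

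Cerebellar and cortical astrocytes, both purified with an Aldh1l1 driver, were compared directly, and this contrast holds no Bergmann glia array. Its arrays did enter the choice of probe sets, which used the mean over all arrays. The 5 genes were called higher in the cerebellum without overlap of arrays, against 14.0% of all genes and a median of −0.13. The sizes were unequal. Gdf10 was higher by 5.17 (SE 0.28, 36.1-fold, limma adjusted p = 2.5e-28) and Septin4 by 4.79 (SE 0.30, 27.6-fold, adjusted p = 7.4e-25). Wif1 was at least 11.9-fold higher, having passed the minimum through the cerebellar arrays only. Cdc42ep4 was higher by 1.27 (SE 0.19, 2.41-fold, limma adjusted p = 1.4e-08) and Timp4 by 1.24 (SE 0.40, 2.36-fold, adjusted p = 0.0066). The other Bergmann glia markers were higher in 7 of 12 and lower in 1 (median 1.35), while the astrocyte markers were higher in none and lower in 2 of 12 (median −0.23). Most markers of cerebellar neurons were also higher in cerebellar astrocyte RNA: 3 of 3 granule neuron genes (median 6.78) and 3 of 4 Purkinje neuron genes (median 4.87). The 3 granule neuron genes, Pcp2 and Ppp1r17 lay under the minimum in cortical astrocytes (Gabra6 at 2.06, Neurod1 at 4.00). They were tested only through the cerebellar arrays and had to differ, so these medians rest largely on differences from background. Calb1, above the minimum in both groups, read 10.13 in cerebellar and 7.72 in cortical astrocytes. The remaining Purkinje neuron gene, Car8, went the other way, at 10.31 in cerebellar and 12.53 in cortical astrocytes. Of 8 myelin genes 4 were higher in cerebellar astrocyte RNA. The part of these markers in the result was not tested.

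Unbound tissue of the 2 regions was compared too, and the sizes differed from those in astrocytes. Gdf10 was at least 55.5-fold higher in unbound cerebellum than in unbound cortex, where it lay under the minimum. Timp4 was higher by 4.33 (SE 0.26, 20.1-fold), Cdc42ep4 by 3.16 (SE 0.12, 8.96-fold) and Septin4 by 2.73 (SE 0.20, 6.65-fold), with limma adjusted p-values of 4.9e-26, 2.1e-38 and 7.2e-22. However, 47.1% of all genes tested were called higher and the median was 0.93, so that relative to the median the differences were 3.39 for Timp4, 2.23 for Cdc42ep4 and 1.80 for Septin4. Against unbound spinal cord, where 27.6% of genes were called higher and the median was 0.42, Gdf10 was higher by 5.47 (44.2-fold), Timp4 by 2.63 (6.21-fold) and Cdc42ep4 by 2.33 (5.03-fold). Septin4 differed from spinal cord by 0.80 (limma adjusted p = 0.007), short of 2-fold, and its arrays overlapped. Wif1 was not tested in either comparison.

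**Figure D4:**
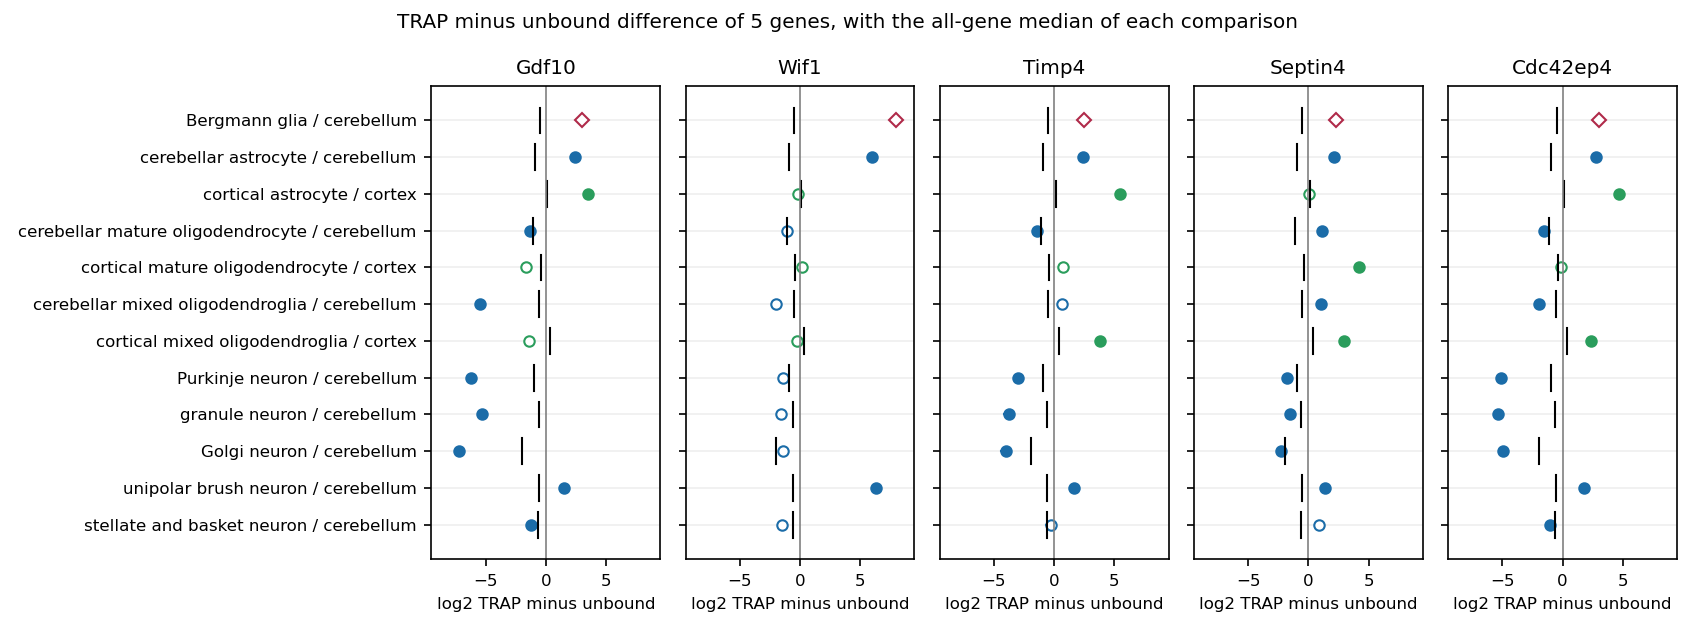
Log2 difference between TRAP RNA and unbound RNA of the same region (x axis) for the 5 genes in each population (y axis). Blue marks cerebellum and green cortex, filled circles are called, open circles are not called or not tested, horizontal lines (mostly hidden by the circles) are ± SE, red diamonds are Bergmann glia (described, without a test), and black bars are the median of all genes. Cerebellar astrocytes and unipolar brush neurons lie to the right of the median in all 5 panels, and Septin4 lies to the right of it and is called in all 4 oligodendroglial groups.

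In mature oligodendrocytes Septin4 was the 1 member called higher. In mature oligodendrocytes of the cortex Septin4 was higher than in unbound cortex by 4.22 (SE 0.26, 18.7-fold, limma adjusted p = 4.4e-25), where 15.7% of all genes were called higher (median −0.40). Timp4 differed by 0.77 (limma adjusted p = 0.042), and by 1.24, then called, after quantile normalization and with the mean of all probe sets. Cdc42ep4 differed by −0.11 (limma adjusted p = 0.54), a sign that turned after quantile normalization. In mature oligodendrocytes of the cerebellum 8.45% of genes were called higher and 53.2% lower (median −1.10). Septin4 was higher by 1.13 (SE 0.27, 2.19-fold, limma adjusted p = 0.00012). Cdc42ep4 was lower by −1.52 (SE 0.17, adjusted p = 5.5e-13), Timp4 by −1.39 (SE 0.36, adjusted p = 0.00038) and Gdf10 by −1.28 (SE 0.26, limma adjusted p = 6.3e-06, with overlapping arrays). These 3 lay within 0.41 of the median of all genes, and after quantile normalization none of the 3 was called. With the single unbound array of the same line as the control, Septin4 differed by 0.27 (adjusted p = 0.58). The myelin list was higher in 8 of 10 genes and the astrocyte list lower in 11 of 12.

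Mixed oligodendroglia, which also hold progenitor markers (4 of 4 higher in each region), gave a further pattern. Of these markers Cspg4 lay under the minimum in unbound RNA of both regions and was tested only through the TRAP arrays. In the cortex 31.8% of genes were called higher (median 0.36), and Timp4 (3.81, 14.0-fold), Septin4 (2.95, 7.71-fold) and Cdc42ep4 (2.32, 5.01-fold) were among them, with limma adjusted p-values of 1.4e-16, 3.3e-17 and 2.6e-22. In the cerebellum 17.8% were called higher and 39.1% lower (median −0.53). There Gdf10 was lower by −5.48 (SE 0.26, limma adjusted p = 3.8e-33) and Cdc42ep4 by −1.95 (SE 0.17, adjusted p = 9.5e-18). Septin4 was higher by 1.05 (SE 0.27, 2.06-fold, limma adjusted p = 0.00038), close to the 2-fold limit, and Timp4 differed by 0.65 (adjusted p = 0.094). Astrocyte markers were lower in 11 of 12 genes in the cerebellar preparation (list median −3.85). In the cortical one 2 were higher and 1 was lower (list median 0.59). Their part in the members' values was not tested.

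Purkinje, granule and Golgi neurons were low in the members. All comparisons of cerebellar neurons share the unbound cerebellum arrays. In Purkinje neurons, where 49.2% of genes were called lower (median −0.96), Gdf10 was at least 55.5-fold lower, its Purkinje neuron level lying under the minimum, and the differences were −5.14 for Cdc42ep4, −3.03 for Timp4 and −1.74 for Septin4. In granule neurons, with 38.0% called lower (median −0.60), they were −5.39, −3.78 and −1.53 in the same order, and −5.28 for Gdf10. In Golgi neurons, with 70.4% called lower (median −1.96), they were −4.90, −4.04 and −2.29, and Gdf10, under the minimum there, was again at least 55.5-fold lower. The 4 genes were called lower in each population, with limma adjusted p-values between 2.2e-50 and 7.6e-07. Septin4 lay nearest to the bulk of genes, 0.33 below the median in Golgi neurons. Bergmann glia and astrocyte markers also fell, to list means of 5.61 and 5.07 in Golgi neurons.

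Stellate and basket neurons were intermediate. Gdf10 was lower than in unbound cerebellum by −1.23 (SE 0.26, limma adjusted p = 1.8e-05, with overlapping arrays) and Cdc42ep4 by −1.02 (SE 0.17, adjusted p = 1.6e-07). These were 2 of the 4 genes tested, where 38.4% of all genes were called lower (median −0.61), and neither was called after quantile normalization or without further scaling. Septin4 differed by 0.84 (limma adjusted p = 0.0044), short of 2-fold, but was called higher in these 2 settings (1.08 and 1.26), and Timp4 by −0.29 (adjusted p = 0.48), which turned to 0.14 without further scaling. The other Bergmann glia markers were lower in 6 of 11 genes and the astrocyte markers in 10 of 12.

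Unipolar brush neuron RNA was the exception among the neurons. It held more of the 5 genes than unbound cerebellum, without overlap of arrays, where 12.1% of all genes were called higher and the median was −0.57. Cdc42ep4 was higher by 1.79 (SE 0.17, 3.46-fold, limma adjusted p = 6.2e-16), Timp4 by 1.64 (SE 0.36, 3.11-fold, adjusted p = 4.4e-05) and Gdf10 by 1.53 (SE 0.26, 2.90-fold, adjusted p = 1.7e-07). Septin4 was higher by 1.37 (SE 0.27, 2.59-fold, limma adjusted p = 6.2e-06). Wif1 passed the minimum only through these TRAP arrays and was at least 14.7-fold higher.

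Most other Bergmann glia markers tested, but only some astrocyte markers, were higher along with the members in the unipolar brush neuron arrays. The 13 other Bergmann glia markers had a mean level of 10.45 (array range 10.30 to 10.60), against 9.87 in unbound cerebellum (9.70 to 10.23). Of them 10 were at or above the minimum, with Hes5, Tnc and Gli1 under it, and of 11 tested 7 were called higher and 1 lower (median 1.26). The 12 astrocyte markers, all above the minimum, had a mean of 11.76 (11.73 to 11.77) against 11.34 (11.13 to 11.80), with overlapping arrays. Of them 4 were called higher: Acsbg1 by 2.60, S100b by 1.61, Slc1a3 by 1.19 and Aldh1l1 by 1.02 (list median 0.22). The others were not called, and Slc4a4 (−0.64), Slc1a2 (−0.55), Aldoc (−0.46), Aqp4 (−0.46) and Gjb6 (−0.19) had the opposite sign. Myelin genes were lower in 8 of 10 and higher in 1, Cmtm5 (median −4.42). Purkinje and granule neuron markers were lower in 5 of 5 and 4 of 4 (medians −3.57 and −3.17). Mog, Mag and Slc1a6 lay under the minimum in these TRAP arrays and were tested only through unbound RNA. The part of the glial markers in the members' levels was not tested.

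Genes with the pattern most like that of each member were sought by Pearson's r over the 30 group means, among 12585 genes that reached the minimum in a group. These values are descriptions over groups, some of which share lines. The arrays fall into 30 normalization sets, as many as there are groups, so the values also compare across sets. For Gdf10 they were Fzd1 (0.89), Pltp (0.87) and Gm6277 (0.87), and for Wif1 Tex36 (0.83), Prelid2 (0.82) and Casp1 (0.82). For Timp4 they were Mdk, Gas1 and H2bc21 (0.91 each), for Septin4 1700047M11Rik (0.86), Cdc42ep1 (0.86) and Fam234a (0.84), and for Cdc42ep4 Nat8 (0.96), Ttpa (0.95) and Plekho2 (0.95). The mean of the 5 standardized members was most like Fzd1 (0.93), followed by Sh2b2, Plekho2, Gm6277 and Lcat (0.92 each).

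Among the members themselves the patterns fell into 4 similar ones and Wif1. Timp4 and Cdc42ep4 correlated at 0.84 over the 30 groups and at 0.75 over the 27 groups left without Bergmann glia, cerebellar astrocytes and unipolar brush neurons. Gdf10 correlated with Cdc42ep4 at 0.81 (0.63 over 27 groups) and with Timp4 at 0.81 (0.69). Wif1 correlated with Gdf10 at 0.53, which became −0.13 over the 27 groups, and with Timp4 at 0.25, which became −0.47. The likeness of Wif1 to the others therefore rested on those 3 cerebellar groups.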

How the data were processed

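RNA bound to tagged ribosomes and unbound RNA were amplified in a two-cycle protocol, biotin labelled and hybridised to Affymetrix arrays, per the labels' protocols. The deposited values are linear intensity values that the authors computed with GCRMA, per the submitters' processing notes, between 4.34 and 132549. From the arrays' shared lowest values they were normalized within 30 sets of at most 9 arrays, as many sets as there are groups. Groups are therefore compared across such sets. The log2 of each deposited intensity (floor 1) was taken, and 1 shift per group equalised the mean of 18 biotinylated control probe sets. Of 45101 probe sets, 932 with several symbols were left out. For 9010 of the 18193 genes with several probe sets, the one with the highest mean was used.

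All arrays of the series entered 1 fit with a coefficient per group (limma 3.58.1 with trend, R 4.3.3), with Benjamini-Hochberg adjustment over all genes tested. The procedure was checked on simulated data with independent noise on each array. Repeated values and differences between normalization sets were not simulated, so that check does not cover them. The p-values measure the spread between replicate preparations, which the series describes as independent, and values repeated exactly between arrays lower it. Differences between normalization sets are not part of that spread and cannot be told apart from differences between groups. Precision is limited by how many arrays a group has. The expression minimum was 6, with none and 8 as alternatives. Other alternatives were no further scaling, 1 shift per array, quantile normalization, log2 of the intensity plus 16, the mean of all probe sets, no trend, only the arrays compared, unbound arrays of the same line, single lines, the replicate block and leaving out each array.

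The members and gene lists were chosen with earlier results of these data known. Named besides the members are, per list, up to 3 called genes with the largest change in each direction in the 2 Bergmann glia comparisons, relatives of the members by level, and the genes most like each member. Some genes of the lists are not reported here.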

Additional observations from a re-analysis of the deposited data

Results flagged for a closer look

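Some arrays stood apart from their group. Among 24 combinations of gene and group with 4 to 10 arrays, 4 had an extreme array by Dixon's test at the 95% level, which chance gives in about 1 of 20. Gdf10 was 6.05 on a Purkinje neuron array of line DR166 (replicate 2), with the others up to 5.66. It was 6.46 on an unbound cortex array of line GM64 (replicate 1), with the others up to 5.78. Wif1 was 2.47 on a Purkinje neuron array of line DR166 (replicate 1), with the others equal at 2.11, all far under the minimum. Because the others were equal, any differing value would have been flagged, and the chance rate does not apply to it. Cdc42ep4 was lowest, at 6.29, on a Purkinje neuron array of line DR168 (replicate 4), with the others from 6.87.

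For most members tested, the difference between TRAP and unbound RNA was not the same in cerebellum and cortex. This was tested as an interaction term in limma, chosen after the data had been seen, as the cerebellar difference minus the cortical one. For astrocytes the term was 6.12 for Wif1, which was tested only through the cerebellar astrocyte arrays and lay under the minimum in the other 3 groups, so that this value is a difference from background. The term was 2.05 for Septin4 (limma adjusted p = 5.3e-07). It was −1.13 for Gdf10 (limma adjusted p = 0.0022), −1.89 for Cdc42ep4 (adjusted p = 7.1e-12) and −3.09 for Timp4 (adjusted p = 2.9e-08). The median term over all genes was −1.04, and 8402 of 11026 genes had an adjusted p under 0.05. After quantile normalization the median was −0.10 and the 5 terms were 7.19, 2.28, −1.18, −1.38 and −2.76.

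In mature oligodendrocytes the terms were −3.09 for Septin4, −2.16 for Timp4 and −1.40 for Cdc42ep4 (limma adjusted p = 5.1e-11, 0.00017 and 4.1e-07), with a median over all genes of −0.62 and 6266 of 10684 genes under 0.05. After quantile normalization they were −2.61, −2.05 and −1.09, with a median of −0.16. The term of Gdf10 in mature oligodendrocytes was 0.36 (limma adjusted p = 0.4), and 0.55 after quantile normalization. In mixed oligodendroglia they were −4.27 for Cdc42ep4, −4.11 for Gdf10, −3.16 for Timp4 and −1.90 for Septin4 (limma adjusted p = 4e-28, 2.3e-17, 7.6e-08 and 8.9e-06), with a median of −0.86 and 7623 of 11000 genes under 0.05. Gdf10 lay under the minimum in both cortical groups. After quantile normalization they were −3.83, −4.04, −2.80 and −1.45, with a median of −0.11.

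Members were also above the unbound tissue in neuron populations outside the cerebellum, which no comparison above used. Layer 5a neurons of the cortex read 8.22 for Gdf10, 11.18 for Timp4, 13.98 for Septin4 and 11.11 for Cdc42ep4, against 5.49, 9.22, 10.78 and 8.76 in unbound cortex. The median difference of all genes from unbound cortex was 1.31 in that population, and its myelin and astrocyte lists had means of 12.18 and 12.30 against 10.22 and 9.74 in unbound cortex. Septin4 read 11.999 in layer 5b neurons (median difference of all genes 0.69) and 11.87 in layer 6 neurons (0.61). Gdf10 read 7.11 in Pnoc+ neurons of the cortex, where the median difference was −1.25. Wif1 read 8.93 in cholinergic neurons of the striatum against 2.54 in unbound striatum, with a median difference of −0.15. The part of the glial markers in these levels was not tested.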

How the results depend on the processing

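The counts of members called changed by more than 1.5 times in 3 comparisons. For stellate and basket neurons it was 2, and 1 without further scaling, after quantile normalization and with the mean of all probe sets (1 to 2 when each array was left out, the lower value without the unbound cerebellum array of line JD307 or replicate 3 of line DR168). For mature oligodendrocytes of the cerebellum it was 4, and 1 after quantile normalization. For those of the cortex it was 1, and 2 after quantile normalization and with the mean of all probe sets, where Timp4 was called higher (1.24 in each), and without an expression minimum. The count of list genes called between Bergmann glia and cerebellar astrocytes was 42, and 24 with a minimum of 8. Leaving out each array, chosen for these lists after the data had been seen, gave 38 to 44 there and 98 to 102 against unbound cerebellum. For mixed oligodendroglia of the cerebellum leaving out each array gave 2 to 3 members called, and in the other comparisons the count did not move. The sign turned for 3 differences that were not called. For Septin4 in cortical astrocytes (0.09) the values were −0.058 without further scaling, −0.077 after quantile normalization, −0.042 with the mean of all probe sets, −0.64 against unbound arrays of the same line, −0.0031 with line JD130 alone, −0.0029 with the replicate block and −0.0099 to 0.24 when each array was left out (the lowest without cortical astrocyte replicate 1). For Timp4 in stellate and basket neurons it was 0.14 without further scaling. For Cdc42ep4 in mature oligodendrocytes of the cortex it was 0.33 after quantile normalization and 0.21 with the mean of all probe sets. The cause was not tested in any of these. Septin4 in mixed oligodendroglia of the cerebellum lost its call with the mean of all probe sets (0.92) and without the unbound array of line DR168, replicate 1 (0.95). The labels do not say whether TRAP and unbound samples of the same line and number came from the same tissue. Between such Bergmann glia and unbound arrays, deviations from the group means correlated at 0.16, −0.008 and 0.11. With so few arrays, these values cannot exclude that the samples were paired. With the replicate block no count of called members changed. The unbound levels of Wif1 lie under the minimum, so its differences from unbound RNA are bounds.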
